A study of Canis lupus familiaris with 15 samples.

Results

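NT5E (ENSCAFG00000002994) and AOC1 (ENSCAFG00000004665) are 2 of the 23630 genes counted by RNA-Seq in the corpus luteum (CL) of 15 dogs. Both were taken by their identifiers. They were chosen by their measured levels in these same dogs, since the study lists both as less expressed after antigestagen treatment than at mid-gestation and at luteolysis. The differences of the antigestagen group from the other groups are therefore described here without a test. The contrasts tested for both genes are those among the other 3 groups, which still share their mid-gestation and luteolysis dogs with the comparisons behind the choice.

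NT5E encodes the ecto-5'-nucleotidase CD73, an enzyme on the cell surface that converts extracellular AMP into adenosine. Adenosine then acts on its own receptors, is taken up by transporters, or is deaminated by ADA to inosine, which PNP degrades further. AOC1 encodes diamine oxidase, a secreted amine oxidase that breaks down histamine and the polyamine precursor putrescine. The CL is the ovarian gland that makes progesterone. In the dog it serves both pregnant and non-pregnant animals, and its function ends abruptly before birth in pregnancy and slowly in the absence of pregnancy.

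All dogs were clinically healthy cross-breed bitches aged 2 to 8 years, and 1 library was made per dog. The mid-gestation group held 5 pregnant dogs at days 35 to 40 after ovulation. The antigestagen group held 5 pregnant dogs at days 40 to 45, treated with 2 applications of the progesterone receptor blocker aglepristone at 10 mg/kg, 24 h apart, and operated 24 h after the second application. The luteolysis group held 3 pregnant dogs in which progesterone was measured at 6 h intervals from day 58, and which were operated once 3 consecutive values lay below 2 to 3 ng/ml. The luteal regression group held 2 non-pregnant dogs at day 65. The antigestagen dogs were thus treated at a somewhat later stage than the mid-gestation dogs, and treatment and stage cannot be told apart. Nescafe was kept with mid-gestation, as its title and condition say, although another label of this dog carries the number of the antigestagen group.

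Each library held from 8558743 to 26284315 counted reads, with a median of 18313707. In what follows, a level is given as CPM, that is, counts per 1000000 reads of the library after scaling of the libraries by TMM (trimmed mean of M values). A gene was called where the quasi-likelihood test of edgeR gave p below 0.01 together with an adjusted p below 0.1. Of 11 fixed markers of luteal steroidogenic cells only PRLR, the prolactin receptor, could be matched to a row, and it was between 67.3 and 145 CPM at mid-gestation, between 121 and 175 CPM after antigestagen, between 74.8 and 95.2 CPM in luteolysis and between 65.8 and 104 CPM in luteal regression. All antigestagen dogs were thus above all luteolysis dogs in PRLR, as was so for 3.53% of the genes of that contrast in this direction. The log2 ratio “luteolysis over antigestagen” of PRLR was −0.86 (SE 0.26, edgeR adjusted p-value 0.1, not called). The part of luteal cells in the levels of NT5E and AOC1 was not tested. Because these are whole tissue samples, fewer cells of a type and less RNA per cell cannot be told apart.

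NT5E was highest in luteolysis and lowest after antigestagen. The luteolysis dogs had 11.0 CPM (Amy), 33.6 CPM (Senta) and 48.5 CPM (Kimba), with a mean of 31.0 ± 18.9 CPM (SD, n = 3). Amy thus had less than Senta and Kimba, and lay within the range of the mid-gestation dogs. The luteal regression dogs had 10.8 CPM (Mara) and 16.1 CPM (Lissy), with a mean of 13.5 ± 3.75 CPM (SD, n = 2). At mid-gestation the levels were 5.97 CPM (Kurtulus), 9.15 CPM (Dardanel), 10.5 CPM (Gold), 16.3 CPM (Nescafe) and 19.8 CPM (Turgay), with a mean of 12.3 ± 5.59 CPM (SD, n = 5). The luteal regression dogs therefore lay inside the range of mid-gestation. After antigestagen the levels were 1.96 CPM (Birnur), 4.45 CPM (Citir), 4.82 CPM (Suzan), 5.44 CPM (Seran) and 5.96 CPM (Zeynep), with a mean of 4.53 ± 1.55 CPM (SD, n = 5). All 5 were below all other dogs, although the gap between Zeynep and Kurtulus was 5.96 against 5.97 CPM.

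NT5E rested on between 40 and 1228 reads per dog. The counting error alone would give a coefficient of variation between 3.92% and 12.3% within the groups, whereas the observed one was 45.3% at mid-gestation, 34.2% after antigestagen, 61.0% in luteolysis and 27.8% in luteal regression. The spread between dogs thus exceeded the counting error in each group. The nearest pair of dogs across the border of 2 groups was not resolved at this depth, since the exact Poisson interval (95%, counting error only) ran from 5.09 to 6.95 CPM in Kurtulus and from 4.53 to 7.68 CPM in Zeynep.

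AOC1 was expressed at a low level in all groups. It was highest at mid-gestation, with 0.313 CPM in Gold, 1.52 CPM in Nescafe, 1.70 CPM in Dardanel, 1.94 CPM in Kurtulus and 2.11 CPM in Turgay, and a mean of 1.52 ± 0.709 CPM (SD, n = 5). Gold was far below the other 4 dogs and rested on 6 reads. The luteolysis dogs were close together with 0.949 CPM (Kimba), 1.33 CPM (Senta) and 1.50 CPM (Amy), with a mean of 1.26 ± 0.283 CPM (SD, n = 3). All 3 were within the range of mid-gestation. In luteal regression Lissy had 0.342 CPM and Mara 0.872 CPM, with a mean of 0.607 ± 0.375 CPM (SD, n = 2). After antigestagen the levels were 0.103 CPM (Suzan), 0.355 CPM (Seran), 0.404 CPM (Zeynep), 0.445 CPM (Citir) and 0.566 CPM (Birnur), with a mean of 0.374 ± 0.171 CPM (SD, n = 5). These dogs overlapped with Gold and with Lissy.

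The low level of AOC1 limits its precision. The 5 antigestagen dogs together held 29 reads of it, from 2 in Suzan to 13 in Birnur, so that the Poisson interval of Suzan ran from 0.0124 to 0.370 CPM. The mean count of this group was 5.8, below the filter minimum of 10, and AOC1 entered the antigestagen comparisons only through the other groups. The 3 luteolysis dogs held 67 reads, the 2 luteal regression dogs 24 reads, and the 5 mid-gestation dogs 157 reads. In luteolysis the observed coefficient of variation of 22.5% was close to the 21.2% that counting alone gives, and after antigestagen it was 45.7% against 41.5%. At mid-gestation it was 46.7% against 17.8%, and in luteal regression 61.7% against 28.9%.

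**Figure D1:**
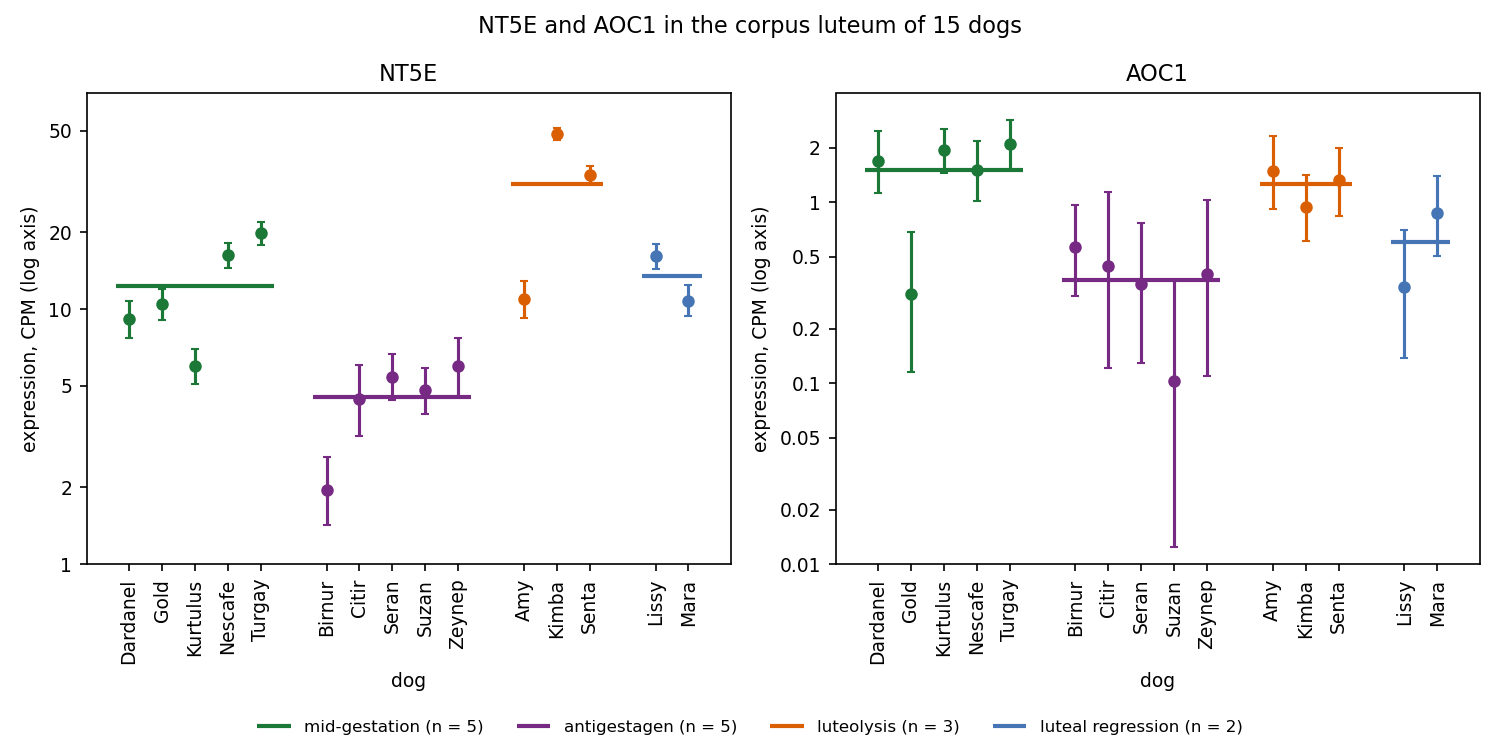
Levels of NT5E (left) and AOC1 (right) in CPM on a log axis, with 1 point per dog, exact Poisson 95% intervals of the count as bars, and the group mean as a horizontal line. For NT5E, Kimba and Senta stand above all other dogs with 48.5 and 33.6 CPM while Amy has 11.0 CPM, and for AOC1, Gold lies at 0.313 CPM below the other mid-gestation dogs.

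The order of the group means was luteolysis, luteal regression, mid-gestation and antigestagen for NT5E, and mid-gestation, luteolysis, luteal regression and antigestagen for AOC1. In neither order did the neighbours among the first 3 groups differ by the call rule of edgeR, as set out next.

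The contrast “mid-gestation over luteolysis” compares the CL of established pregnancy with the CL at its natural end. NT5E was 2.52-fold lower at mid-gestation than in luteolysis, with a log2 ratio of −1.33 (SE 0.45) and a 95% interval from −2.28 to −0.39. It was not called, since its p-value of 0.00891 in edgeR came to an adjusted p-value of 0.105. In this contrast 8.16% of the 14669 genes tested were called, and 0 of the 2 genes described here. The Wald test of DESeq2, which is the method of the study, called NT5E with a log2 ratio of −1.31 and an adjusted p-value of 0.0549. It called 1747 of the 14669 genes. NT5E was also called by limma-voom with sample quality weights, with −1.68 and an adjusted p-value of 0.00442, where 3305 of these genes were called. Without the dog Amy the ratio was −1.73 and was called by edgeR (adjusted p-value 0.0114), and without Turgay it was −1.58 and was called as well (adjusted p-value 0.0800). Without Kimba it was −0.86 (adjusted p-value 0.427). AOC1 had a log2 ratio of 0.28 (SE 0.57, 95% interval −0.94 to 1.50, edgeR adjusted p-value 0.837). With limma-voom the sign was turned (−0.17). The interval of edgeR holds differences of more than a doubling at its upper end.

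The contrast “luteal regression over luteolysis” compares late regression without pregnancy with the natural luteolysis of pregnancy. NT5E had a log2 ratio of −1.20 (SE 0.59, 95% interval −2.46 to 0.05), which was not called by edgeR (p-value 0.0592, adjusted p-value 0.285). It was called by limma-voom with −1.35 and an adjusted p-value of 0.0139, where 3756 of the 14768 genes were called. AOC1 had a log2 ratio of −1.04 (SE 0.75, 95% interval −2.64 to 0.56, edgeR adjusted p-value 0.480). Both luteal regression dogs were below the 3 luteolysis dogs in AOC1, as was so for 19.5% of all genes in the same direction. This separation was lost with scaling by the total count alone, with 1.03 CPM in the highest luteal regression dog against 1.02 CPM in the lowest luteolysis dog. Of the 14768 genes tested 5.11% were called, among them 0 of both genes.

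The contrast “luteal regression over mid-gestation” sets the regressing CL of the non-pregnant dog beside that of pregnancy. NT5E had a log2 ratio of 0.13 (SE 0.52, 95% interval −0.98 to 1.24, edgeR adjusted p-value 0.923). The sign of this value depended on single dogs, with −0.19 without Lissy and −0.05 without Kurtulus. AOC1 was 2.49-fold lower in luteal regression, with a log2 ratio of −1.32 (SE 0.71, 95% interval −2.83 to 0.19), and was not called (edgeR p-value 0.083, adjusted p-value 0.397). Without Mara it was −2.13, and without Lissy −0.80. The share of genes called was 0%, that is 0 of 14685 by edgeR, where 2073 genes had an unadjusted p-value below 0.05, DESeq2 called 332 and limma-voom 2714.

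For the antigestagen group only values are given, since they chose the genes. In “mid-gestation over antigestagen” the log2 ratio was 1.45 (SE 0.41) for NT5E and 2.01 (SE 0.54) for AOC1, that is 2.74-fold and 4.04-fold higher at mid-gestation. In “luteolysis over antigestagen” it was 2.79 (SE 0.46) for NT5E, a 6.91-fold difference, and 1.74 (SE 0.60) for AOC1, a 3.34-fold difference. It was 1.58 (SE 0.50) in “luteal regression over antigestagen” for NT5E and 0.70 (SE 0.70) for AOC1, and without Mara the latter was −0.11. These 3 contrasts share the antigestagen dogs.

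The groups did not overlap in NT5E between mid-gestation and antigestagen, as for 0.569% of the 14399 genes of that contrast in this direction. With the size factors of DESeq2 they did overlap, with 5.95 CPM in the lowest mid-gestation dog against 5.97 CPM in the highest antigestagen dog. Both genes did not overlap between luteolysis and antigestagen, as for 4.21% of genes in this direction, and NT5E did not overlap between luteal regression and antigestagen, as for 14.3%. The last 3 separations held under TMM, upper-quartile, total count and DESeq2 scaling.

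**Figure D2:**
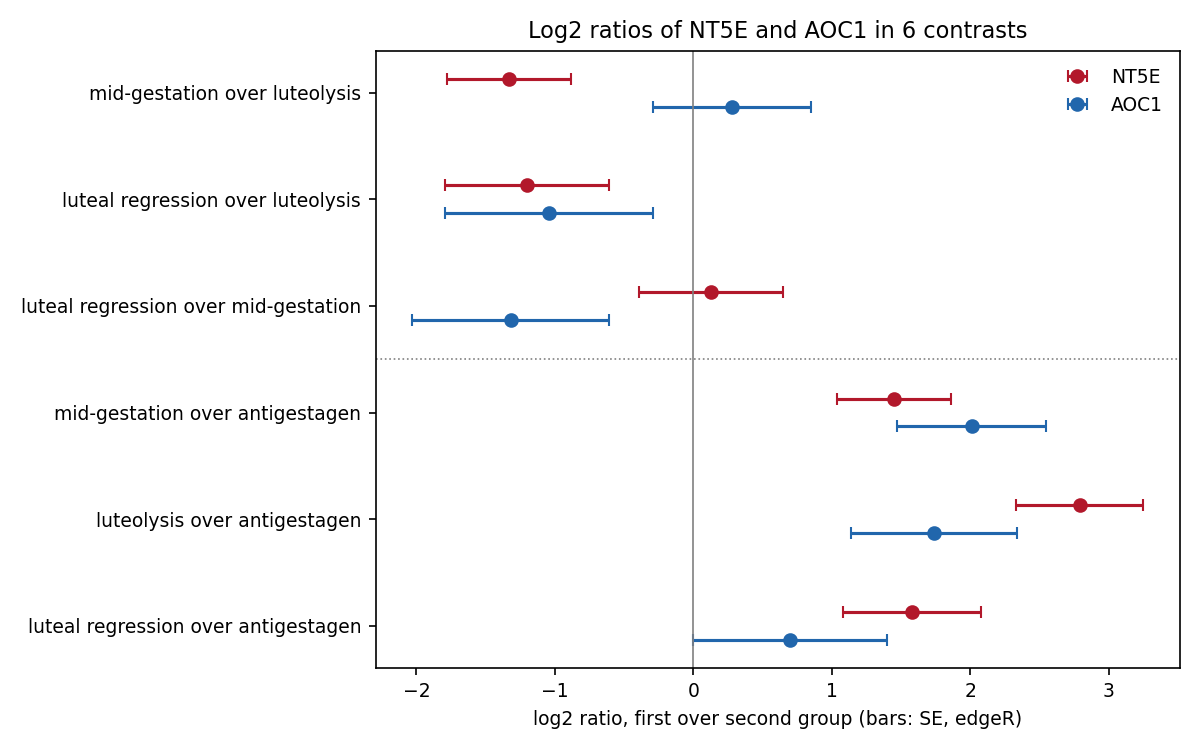
Log2 ratios of NT5E (red) and AOC1 (blue) in 6 contrasts, with the SE from edgeR as bars. The 3 contrasts above the dotted line were tested, where NT5E lies at −1.33, −1.20 and 0.13 and AOC1 at 0.28, −1.04 and −1.32. Of the 3 below it, those with mid-gestation and with luteolysis chose the genes. All 3 share the antigestagen dogs and are a description.

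**Figure D3:**
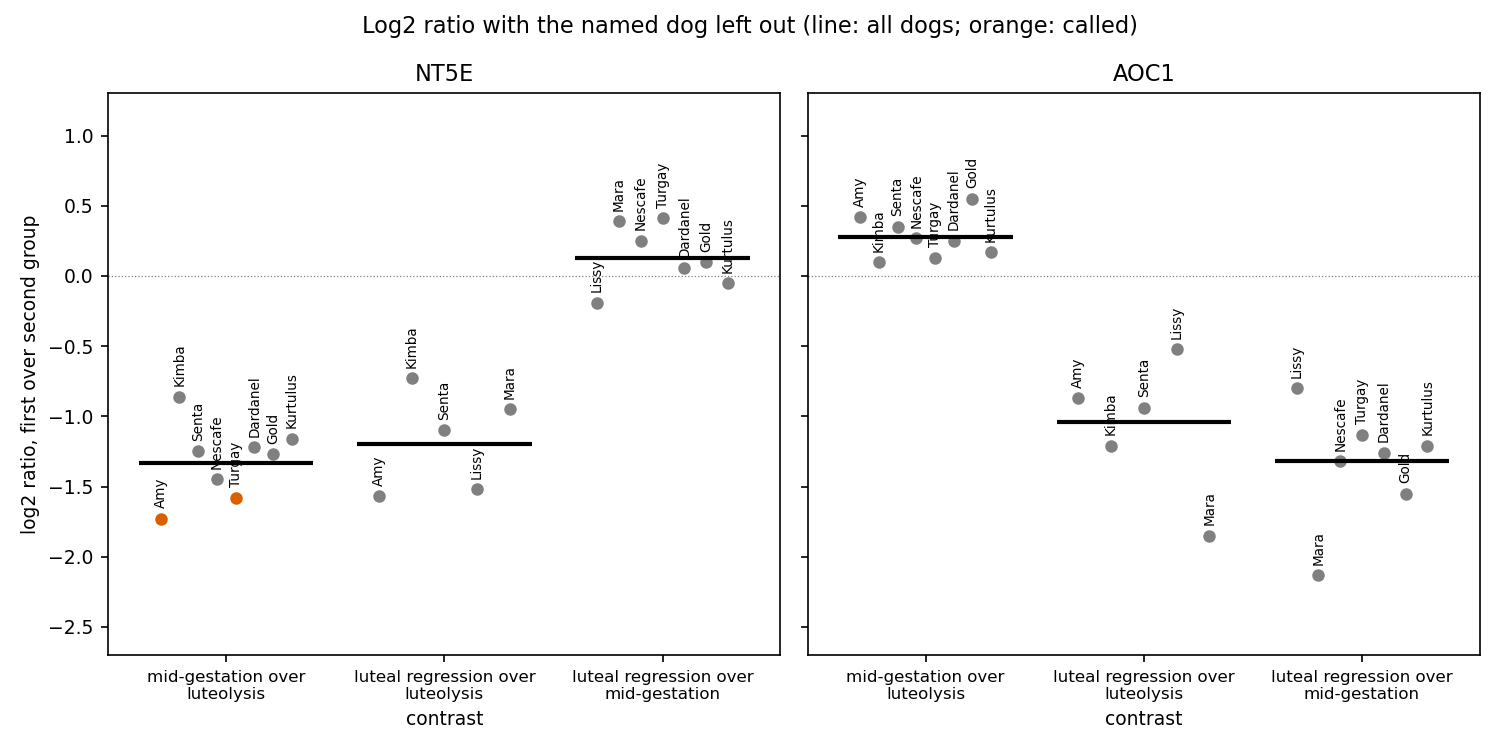
Log2 ratios of NT5E (left) and AOC1 (right) in the 3 tested contrasts when the dog named at the point is left out, with the value of all dogs as a line and called values in orange. For NT5E in “mid-gestation over luteolysis” the values run from −1.73 without Amy to −0.86 without Kimba, and for AOC1 in both contrasts with luteal regression the removal of Mara or Lissy moves the value furthest.

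Compared with genes of all levels of expression, both genes varied more between dogs of a group than most. At its own low level AOC1 lay below the trend over genes. The biological coefficient of variation estimated by edgeR was 0.44 for NT5E, where the trend at its level of expression was 0.34, and 77.4% of genes had a lower one. For AOC1 it was 0.50, where the trend was 0.57, and 83.4% of genes had a lower one.

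Within the groups the 2 genes did not follow each other detectably. Over the 15 dogs, the deviations of log2 CPM from the group means had a Pearson r of −0.23 (p = 0.445, adjusted p = 0.445) and a Spearman rho of −0.30 (p = 0.264, adjusted p = 0.445) in an exact permutation test within groups over all orders of the dogs, two-sided. Without Amy and Birnur, the dogs farthest from the median in NT5E, r was −0.04 (exact permutation p = 0.939) and rho −0.26 (exact permutation p = 0.493, n = 13). Without the antigestagen dogs, in which AOC1 rests on 2 to 13 reads each, r was −0.15 (exact permutation p = 0.692) and rho −0.22 (exact permutation p = 0.502) over 10 dogs, an alternative added after the data had been seen. Amy, Birnur and Kurtulus were low for their group in NT5E and above their group mean in AOC1, whereas Turgay was the highest of its group in both. Across all dogs with the group differences included, r was 0.43 and rho 0.44. That value holds the low antigestagen levels that chose the genes.

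**Figure D4:**
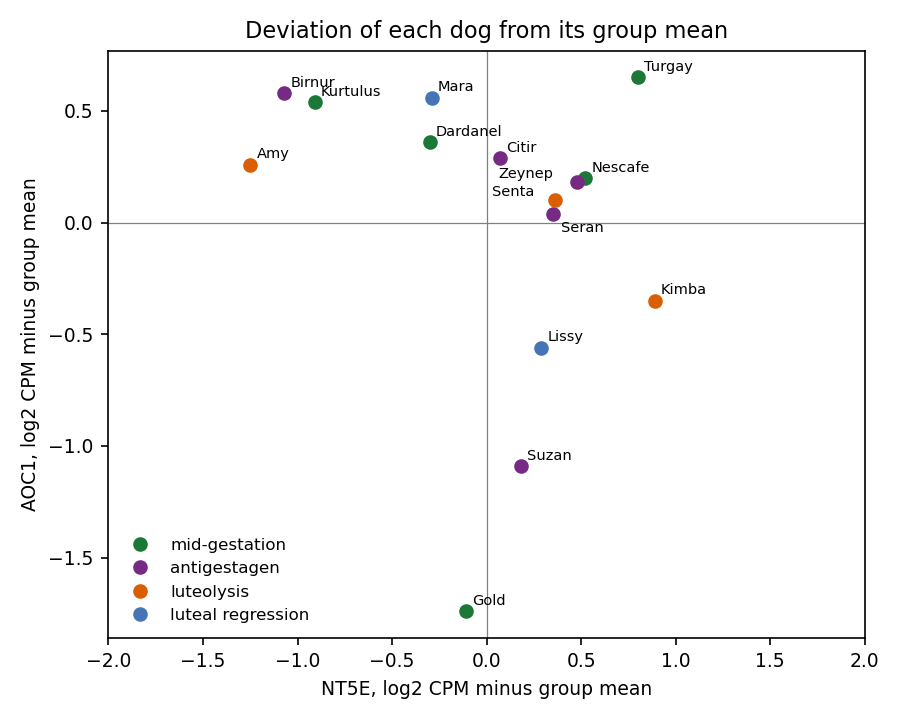
Deviation of each dog from the mean of its group in log2 CPM, NT5E on the horizontal and AOC1 on the vertical axis, coloured by group. The points show no common line (r = −0.23), with Amy far to the left in NT5E and Gold far down in AOC1.

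Since both counts come from the same library, their ratio does not depend on the scaling of libraries. This measure was added after the data had been seen. The log2 ratio of NT5E to AOC1 counts was 2.87 in Amy, 4.65 in Senta and 5.68 in Kimba. It had a mean of 4.40 ± 1.42 (SD, n = 3) in luteolysis, 3.15 ± 1.29 (SD, n = 5) at mid-gestation and 4.60 ± 1.36 (SD, n = 2) in luteal regression. In exact permutation tests, two-sided, mid-gestation minus luteolysis was −1.25 (p = 0.232, adjusted over the 3 contrasts p = 0.357), luteal regression minus luteolysis 0.20 (p = 1, adjusted p = 1) and luteal regression minus mid-gestation 1.44 (p = 0.238, adjusted p = 0.357). The smallest p-values these designs allow are 0.0179, 0.1 and 0.0476. A difference in how the 2 genes behave between these groups was therefore not shown.

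The other genes of the 2 pathways were taken from lists of adenosine production, adenosine and ATP receptors and transporters, polyamine handling and histamine handling. Only genes named in the additional files of the study could be matched to rows, and those files list genes the authors called on these same dogs. The counts and medians below are therefore not independent evidence of any direction or size. Genes picked in this way are called more often and have larger ratios than all genes by the choice itself. A gap to the shares and medians over all genes is thus no result about the pathways. Unmatched genes such as ENTPD1, ADK, ADORA2B, SAT1 and HDC have no value here.

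Of 23 genes of adenosine production and breakdown 3 were matched, NT5E, ADA and PNP. ADA, which removes adenosine, in “luteal regression over luteolysis” fell by 1.58 on the log2 scale (SE 0.42, edgeR adjusted p-value 0.0719). The luteolysis dogs had 35.4 CPM (Amy), 67.1 CPM (Senta) and 79.2 CPM (Kimba), and the luteal regression dogs 18.1 CPM (Lissy) and 22.5 CPM (Mara). All 3 luteolysis dogs were above both, as was so for 19.5% of all genes of that contrast in the same direction. ADA was not called in “mid-gestation over luteolysis” (−0.64, SE 0.31, edgeR adjusted p-value 0.267), and PNP in none of the contrasts. The median log2 ratio of ADA and PNP was −1.25 in “luteal regression over luteolysis” and −0.40 in “mid-gestation over luteolysis”, against −0.05 and −0.02 over all genes tested.

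Of 22 genes of adenosine and ATP receptors and transporters 7 were matched. In “mid-gestation over luteolysis” 1 was called as higher at mid-gestation and 3 as higher in luteolysis, in “luteal regression over luteolysis” 1 as higher in luteolysis, and in “luteolysis over antigestagen” 3 as higher in luteolysis and 1 as lower. Over all genes 8.16%, 5.11% and 4.75% were called in these contrasts, in both directions together. The median log2 ratios of the 7 genes were −0.73, −1.25 and 0.68, against −0.02, −0.05 and 0.02 over all genes.

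ADORA2A, a receptor for adenosine, had 1.73 CPM in Amy, 17.8 CPM in Kimba and 37.0 CPM in Senta, and between 0.556 and 2.89 CPM in the 12 other dogs. Amy was again among the other groups. The receptor was called in “mid-gestation over luteolysis” (−3.22, SE 0.62, edgeR adjusted p-value 0.0135), in “luteal regression over luteolysis” (−3.01, SE 0.87, 0.0894) and in “luteolysis over antigestagen” (3.63, SE 0.63, 0.0168). P2RY12 and P2RY13, receptors for ADP, were likewise called as higher in luteolysis than at mid-gestation (−2.07, edgeR adjusted p-value 0.0551, and −3.23, 0.0173) and than after antigestagen (2.41, 0.0494, and 2.36, 0.072). For P2RY13 Amy had 0.676 CPM, Senta 3.88 CPM and Kimba 5.93 CPM. SLC29A4, a membrane transporter for monoamines and adenosine, went the other way with 1.33 in “mid-gestation over luteolysis” (edgeR adjusted p-value 0.0611) and −1.43 in “luteolysis over antigestagen” (0.0646). It had 80.6 CPM in Amy against 31.7 CPM in Kimba and 28.7 CPM in Senta.

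Of 24 genes of polyamine synthesis, breakdown and transport 9 were matched, AOC1 included. Among the other 8, in “mid-gestation over luteolysis” 1 was called as higher at mid-gestation and 3 as higher in luteolysis, in “luteal regression over luteolysis” 1 as higher in luteolysis, and in “luteolysis over antigestagen” 4 as higher and 1 as lower in luteolysis. Over all genes 8.16%, 5.11% and 4.75% were called in these contrasts. The median log2 ratios of the 8 genes were −0.64, −0.57 and 0.71, against −0.02, −0.05 and 0.02 over all genes.

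ODC1, ornithine decarboxylase, makes putrescine, the substrate of AOC1. It had 171 CPM (Kimba), 192 CPM (Amy) and 283 CPM (Senta) in luteolysis, and 91.6 CPM (Lissy) and 120 CPM (Mara) in luteal regression. It was called in “luteal regression over luteolysis” (−1.03, SE 0.27, edgeR adjusted p-value 0.0699) and in “luteolysis over antigestagen” (0.74, SE 0.20, 0.0769). AZIN1, which protects ODC1 from its inhibitor antizyme, was called as higher in luteolysis than at mid-gestation (−0.85, edgeR adjusted p-value 0.0316) and than after antigestagen (0.74, 0.0719).

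AMD1, which supplies the aminopropyl groups for spermidine and spermine, had 36.9 CPM in Amy, 56.7 CPM in Kimba and 77.4 CPM in Senta. It was called in “mid-gestation over luteolysis” (−0.77, SE 0.19, edgeR adjusted p-value 0.0385) and in “luteolysis over antigestagen” (1.03, SE 0.19, 0.0198). Of the oxidases that break down polyamines, SMOX, which oxidizes spermine, was called as higher in luteolysis than at mid-gestation (−1.23, SE 0.36, edgeR adjusted p-value 0.0641) and than after antigestagen (1.45, SE 0.36, 0.0518), with 6.98 CPM in Amy, 32.3 CPM in Kimba and 35.2 CPM in Senta. PAOX, which oxidizes acetylated polyamines, was called as higher at mid-gestation than in luteolysis (1.00, SE 0.32, edgeR adjusted p-value 0.0961). The lysosomal polyamine exporter ATP13A2 was called in “luteolysis over antigestagen”, in which it fell by 1.00 on the log2 scale (SE 0.26, edgeR adjusted p-value 0.0625).

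Histamine, the other substrate of AOC1, is methylated by HNMT and acts on HRH2 among other receptors. Of 15 genes of histamine and amine handling 3 were matched, HNMT, HRH2 and AOC2. HRH2 had 0.150 CPM in Amy, 13.7 CPM in Senta and 14.9 CPM in Kimba, and between 0 and 1.15 CPM in the 12 other dogs. It was called in “mid-gestation over luteolysis” (−4.72, SE 1.04, edgeR adjusted p-value 0.0235), in “luteal regression over luteolysis” (−5.23, SE 1.59, 0.0974) and in “luteolysis over antigestagen” (4.62, SE 1.05, 0.04). The second of these calls was made in only 4 of 12 alternative settings, and it was lost with other scalings, among them the size factors of DESeq2 (edgeR adjusted p-value 0.101). HNMT was not called, with 0.37 in “mid-gestation over luteolysis” (edgeR adjusted p-value 0.352) and −0.63 in “luteolysis over antigestagen” (0.141). AOC2, another amine oxidase, was not called in any contrast in which it was tested. Medians over this list were −0.44, −2.06 and −0.63 in the order of the contrasts above, against −0.02, −0.05 and 0.02 over all genes. Of all genes tested 8.16%, 5.11% and 4.75% were called in them.

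In “mid-gestation over antigestagen” none of the other tested genes of the 4 lists was called, NT5E and AOC1 aside, and 0% of all 14399 genes, where 980 had an unadjusted p-value below 0.05, DESeq2 called 87 and limma-voom 20. In “luteal regression over mid-gestation” no tested gene of the lists was called by edgeR, where limma-voom called 4 and a fit of only the compared dogs 3.

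The number of calls in these lists depended on single luteolysis dogs and on the samples fitted. In “mid-gestation over luteolysis” there were 9 calls with all dogs, 12 without Amy, 3 without Kimba and 0 without Senta. There were 4 in “luteal regression over luteolysis” with all dogs, 10 without Amy, 3 without Kimba, and 0 without Senta, without Lissy or without Mara. In “luteolysis over antigestagen” there were 10 with all dogs, 13 without Amy, 3 without Kimba and 0 without Senta. Leaving out 1 antigestagen dog left between 5 and 8 calls in the last contrast, the fewest without Birnur, and leaving out 1 mid-gestation dog left between 5 and 9 in the first, the fewest without Dardanel. When only the dogs of the compared groups were fitted, the 3 contrasts gave 4, 0 and 0 calls. They share the 3 luteolysis dogs. Over the alternative settings, single dogs left out included, the called genes in “mid-gestation over luteolysis” stayed called in 7 (PAOX) to 14 (ADORA2A, HRH2 and P2RY13) of 15 settings. In “luteal regression over luteolysis” it was 4 (HRH2) to 8 (ADORA2A and ODC1) of 12, and in “luteolysis over antigestagen” 8 (AZIN1 and P2RY13) to 13 (ADORA2A and AMD1) of 15. Of the 12 called genes, the level in Amy was within the range of the mid-gestation dogs for 5, that in Kimba for 1 and that in Senta for 0. These genes were called in contrasts with the luteolysis dogs, so levels outside that range were partly fixed by the choice. The count is a description of the calls only.

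**Figure D5:**
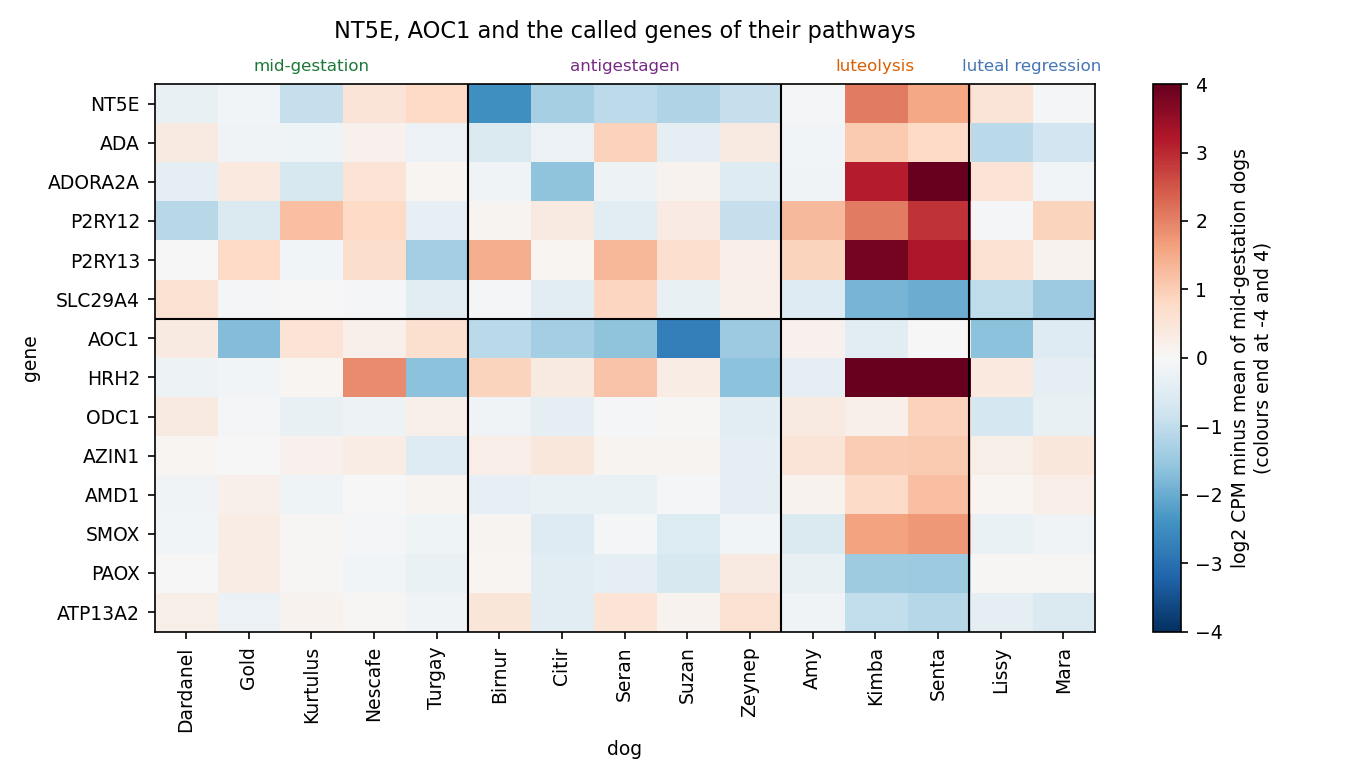
Log2 CPM of NT5E, AOC1 and the 12 called genes of their pathways in each dog, minus the mean of the mid-gestation dogs (red higher, blue lower, colours end at −4 and 4), with adenosine genes above the black line and polyamine and histamine genes below it. Kimba and Senta stand out from the other 13 dogs in most rows, including NT5E, and AOC1 does not follow this pattern. Amy stands out in fewer rows. In AZIN1 (76.3 CPM) and P2RY12 (1.8 CPM) Amy too was slightly above all dogs of the other groups. In ODC1 this held for Amy (192 CPM) but not for Kimba (171 CPM). In SMOX Amy (6.98 CPM) was below all other dogs.

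Markers of other cells differed between the same dogs. The sum of 5 matched endothelial markers of 11 (PECAM1, VWF, FLT1, TEK and ROBO4) was 424 CPM in Amy, 886 CPM in Senta and 962 CPM in Kimba, between 273 and 696 CPM at mid-gestation, between 481 and 1010 CPM after antigestagen and between 299 and 306 CPM in luteal regression. The neutrophil marker CSF3R was 1.13 CPM in Amy, 11.8 CPM in Senta and 48.6 CPM in Kimba, between 1.94 and 13.9 CPM at mid-gestation, between 6.76 and 12 CPM after antigestagen, and 0.513 and 2.20 CPM in luteal regression. S100A9, another neutrophil marker, was 1.73 CPM in Amy, 18.7 CPM in Kimba and 19.8 CPM in Senta, between 2.47 and 16.0 CPM at mid-gestation, between 7.23 and 23.1 CPM after antigestagen, and 0.205 and 2.20 CPM in luteal regression. As for NT5E, Amy was the lowest of the luteolysis dogs in all 3 values. The antigestagen dogs were not the lowest in them, and the part of these cells in the level of NT5E was not tested.

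The sum of 4 pericyte and fibroblast markers of 11 was between 1900 and 4580 CPM in luteolysis, between 3680 and 14900 CPM at mid-gestation, between 3360 and 9210 CPM after antigestagen and between 5360 and 7030 CPM in luteal regression. That of 5 macrophage markers of 11 was between 282 and 338 CPM, between 210 and 501 CPM, between 248 and 649 CPM and between 113 and 140 CPM in the same order. The 3 lymphocyte markers of 13 (CD3E, CD2 and ZAP70) summed to 6.01 CPM in Amy, 3.68 CPM in Kimba and 3.01 CPM in Senta, and to between 9.17 and 22.3 CPM at mid-gestation, between 6.46 and 14.6 CPM after antigestagen and between 6.98 and 8.61 CPM in luteal regression. All 3 luteolysis dogs were below all other dogs, and Amy was the highest of them. CD2 was called in “mid-gestation over luteolysis” (1.65, SE 0.41, edgeR adjusted p-value 0.0364) and in “luteolysis over antigestagen” (−1.38, SE 0.40, 0.0899). Of 6 listed mast cell markers only GATA2 was matched, and 1 gene alone does not identify these cells. Its level was between 6.23 and 10 CPM in luteolysis and between 8.12 and 15 CPM at mid-gestation. It was between 10.9 and 18.9 CPM after antigestagen and between 8.77 and 10.5 CPM in luteal regression. GATA2 was not called in any contrast. None of the markers given here was at 0 over a whole group. The part of these cell types in the levels of NT5E and AOC1 was not tested.

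Among the 2966 other named genes of the fit, those whose log2 CPM was most like NT5E over the 15 dogs were TMEM183A (r = 0.87), AASDHPPT (r = 0.86), TMEM38A (r = 0.86), DENR (r = 0.86) and SNORD47 (r = 0.85). Their Spearman rho was between 0.64 and 0.89. Among those most like AOC1 were MORN1 (r = 0.85), LMLN (r = 0.79), FAM151B (r = 0.75) and ND2 (r = 0.74), with rho between 0.75 and 0.89. The dogs share their libraries and the group differences across these genes, so these values are a description.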

How the data were processed

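Poly-A RNA of the CL of 15 dogs was sequenced as single-end reads with a kit that does not keep strand, so that overlapping antisense genes cannot be told apart. Per the labels and the methods of the study, the authors aligned the reads to CanFam3.1 with STAR 2.5.1b and deposited the raw count of each Ensembl gene from featureCounts, unscaled and unfiltered. From 10000 upwards the counts keep only 4 significant digits, which touches neither gene. The third luteal regression dog of the study was not analysed here.

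The 14922 of 23630 genes whose mean count reached 10 in any group were fitted in R 4.3.3 with edgeR 4.0.16 (TMM, quasi-likelihood F-test, all dogs, group as the only factor). Each contrast was tested two-sided on the genes with that mean in either group. Benjamini-Hochberg adjustment ran over all genes of a contrast. The edgeR p-values set a difference between groups against the spread between dogs, which was estimated over all groups together. Log2 CPM used a prior count of 2. Alternatives were DESeq2 1.42.0, limma 3.58.1 (voom), other scalings and filters, only the compared groups, and each dog left out. The script was tested on simulated data.

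Both genes and all lists were chosen with earlier results of these data known. Named genes are both genes, each list gene called in a contrast, ADA, ODC1, SMOX, ADORA2A and HNMT, and the 5 named genes most correlated with each, some of which, like part of a marker list, are not reported here. PNP and AOC2 complete their lists and were named after their values were seen. Names came from the additional files of the study (2970 of 3261 identifiers), whose fold changes and p-values were not used. The collection site of each dog is not given in the sources used here. No sequence or coordinate was used.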

Additional observations from a re-analysis of the deposited data

How the results depend on the processing

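For NT5E in “mid-gestation over luteolysis” the log2 ratio of −1.33 was called with DESeq2 (−1.31) and limma-voom (−1.68), and leaving out 1 dog gave values from −1.73 to −0.86 with edgeR adjusted p-values from 0.0114 to 0.427. In “luteal regression over luteolysis” it was called with limma-voom only (−1.35), and leaving out 1 dog gave −1.57 to −0.73. In “luteal regression over mid-gestation” leaving out 1 dog gave −0.19 to 0.41. For AOC1 in “mid-gestation over luteolysis” limma-voom turned the sign (−0.17), while leaving out 1 dog gave 0.10 to 0.55. Its other ranges were −1.85 to −0.52 in “luteal regression over luteolysis” and −2.13 to −0.80 in “luteal regression over mid-gestation”. Against antigestagen, leaving out 1 dog gave 1.22 to 1.63 (mid-gestation), 2.31 to 3.20 (luteolysis) and 1.27 to 1.84 (luteal regression) for NT5E. For AOC1 it gave 1.75 to 2.29, 1.47 to 1.99 and −0.11 to 1.22. The other alternatives gave, in the same order, 1.46 to 1.78, 2.78 to 3.46 and 1.59 to 2.11 (limma-voom) for NT5E. For AOC1 they gave 1.58 to 2.05, 1.73 to 1.75 and 0.62 to 0.80. The causes were not tested. Where 1 luteal regression dog was left out, the remaining dog was assumed to vary like the other groups.

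In the order mid-gestation, luteal regression and antigestagen, each against luteolysis, the list calls were 9, 4 and 10 with edgeR, 12, 9 and 13 with DESeq2, 17, 14 and 16 with limma-voom, and 4, 0 and 0 when only the compared dogs were fitted. Over all genes, calls were 1197, 754 and 687 with edgeR, 1747, 1567 and 1486 with DESeq2, 3305, 3756 and 2941 with limma-voom, and 422, 0 and 3 with only the compared dogs. In “luteal regression over mid-gestation” only the compared dogs gave 770 calls, against 0. AOC1 does not reach a mean count of 50 in any group and has no value under that filter. At 2 to 54 reads per dog, AOC1 is limited by depth. No paired analysis was possible because each library came from a different dog.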
